A study of Mus musculus with 12 samples.

Results

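Ephrins and their Eph receptors were described in sorted intestinal stem cells (ISCs) of mice exposed once to restraint stress or to corticosterone (CORT). The 10 genes were taken by symbol from a list whose rule holds no threshold, though the list was drawn up with earlier results of these data known: the ligands Efna1, Efna3, Efna4, Efnb1 and Efnb2 and the receptors Epha1, Epha2, Ephb2, Ephb3 and Ephb4. They were 10 of the 47729 genes in the count table and 10 of the 22 Eph and ephrin genes looked up in it. All 10 passed the filter on low counts in every comparison.

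RNA-seq libraries were made from small intestinal Lgr5-EGFP-hi cells. The mice carried the Lgr5-EGFP-IRES-CreERT2 allele, where the promoter of the stem cell gene Lgr5 drives both the green reporter and the recombinase. The mice were 8 to 10 weeks old and of both sexes, and the sex behind each library is not given in the sources used here. There were 4 groups of 3 libraries. Stress mice were exposed to restraint on 1 day. The study's methods describe restraint as confinement in a tube for 3 h, with controls kept without food and water meanwhile, only for a protocol repeated daily, and the length of the single exposure and the handling of its Ctrl mice are not given in the sources used here. CORT mice received 1 intraperitoneal injection of 5 mg/kg corticosterone, the main glucocorticoid of rodents, in a solution of sulfobutylether-β-cyclodextrin, and vehicle mice received that solution. No other allele or agent is named for these libraries. The stress libraries carry the numbers 1+2, 3 and 4+5+6 and were read as pools of 2, 1 and 3 mice. The study's methods state in general that the samples of a group were biologically independent. They do not say which mice, or how many, went into each library, so p-values measure the spread between these libraries.

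Eph receptors are receptor tyrosine kinases, and ephrins are ligands that stay anchored in the membrane of the neighbouring cell, A-type ephrins by a lipid and B-type ephrins by a transmembrane stretch. Contact starts forward signalling in the receptor-bearing cell and reverse signalling in the ligand-bearing cell, and its common output is repulsion or adhesion through the cytoskeleton. In the intestinal crypt, Wnt signalling keeps EphB2 and EphB3 high at the base while ephrin-B1 is higher towards the villus, an arrangement that holds cell types in their places along the axis.

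Library totals ranged from 15934907 to 17135770 counts in the Ctrl and stress groups, from 16465961 to 31280267 in the vehicle group and from 29426183 to 69533214 in the CORT group. The libraries CORT 2 and CORT 4 were the deepest, and CORT 5 was below the deepest vehicle library. Each of these counts stands for about 75 covered bases, so a pair of 150-base reads gives up to 4 counts. Within a gene, levels are given in CPM, counts relative to the library total with trimmed-mean scaling. Between genes they are compared in FPKM, which also divides by gene length.

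The libraries were checked against markers of the cells they should and should not hold. The 6 ISC markers summed to between 10672 and 13929 CPM in all 12 libraries, most of it from Olfm4. Of these 6, Ascl2 fell under stress, and Ascl2, Lgr5 and Smoc2 fell under CORT (edgeR, adjusted p below 0.05). The 6 blood markers summed to at most 1.327 CPM, and the 6 stromal and endothelial markers to at most 4.095 CPM, with Cdh5 and Col1a2 at 0 in every library. Enterocyte markers stood apart in the stress group. Their sum was 90.99, 81.95 and 103.6 CPM in the Ctrl libraries and 693.2, 243 and 1491 CPM in the stress libraries 1+2, 3 and 4+5+6. Sis was the most abundant of them over the 3 stress libraries together, though Apoa1 was above it in stress 3 and 4+5+6. All 6 rose under stress with edgeR and with DESeq2 (adjusted p below 0.05) and 0 of 6 passed with limma. None of them was at 0 in any library. Under stress 1 of 6 Paneth markers (Mmp7) and 1 of 6 goblet markers (Clca1) also rose, with median log2 fold changes of 0.57 and 0.51 for these lists. The goblet sum was 529.3, 665.7 and 521.1 CPM in Ctrl and 884.1, 500.6 and 1351 CPM in the stress libraries 1+2, 3 and 4+5+6. That is the order of the stress enterocyte sums. The Paneth sum was 263.1, 168.6 and 247.7 CPM in the same stress libraries. In CORT vs. vehicle none of the 6 enterocyte markers passed, while 4 of 6 Paneth markers fell (Mmp7, Itln1, Defa24 and Defa17). Of 2 stromal and endothelial markers tested, the endothelial Pecam1 rose (2.12 in log2, adjusted p = 0.0427). It went from at most 0.9503 CPM in vehicle to between 1.463 and 3.232 CPM in CORT libraries. Of 3 tuft cell markers tested, Pou2f3 fell (-1.14, adjusted p = 0.0317), while Trpm5 (-0.20) and Avil (0.61) did not pass. The Paneth sum, in which Mmp7 was the most abundant gene in vehicle libraries, was 173.3, 135.7 and 157.5 CPM in Ctrl, 185.6, 199.2 and 211.1 CPM in vehicle and 104, 115.8 and 104.2 CPM in CORT libraries. Mmp7 was already higher in vehicle than in Ctrl libraries (2.04, adjusted p = 1.8e-04), and its CORT levels of 31.76 to 42.05 CPM stayed above the Ctrl levels of 16.45 to 25.71 CPM. The sort gate took cells lacking CD24 and CD31. Paneth cells are known to carry CD24, and Pecam1 encodes CD31. In bulk libraries, fewer cells of a type and less RNA per cell cannot be told apart.

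Per length, Ephb4 was the most abundant of the 10 genes. In Ctrl libraries it stood at 76.0 ± 2.39 FPKM (SD, n = 3), ahead of Efna4 at 42.1 ± 1.08, Efna1 at 36.5 ± 2.33, Ephb3 at 30.2 ± 0.23, Ephb2 at 25.3 ± 2.9 and Efnb1 at 23.7 ± 1.49 FPKM. Efna3 at 13.1 ± 2.56, Epha1 at 8.96 ± 1.61, Epha2 at 6.33 ± 0.342 and Efnb2 at 1.91 ± 0.86 FPKM made up the lower end. Among neighbours in this order, Ephb2 and Efnb1 overlapped in their Ctrl values, as did Efna3 and Epha1, while the other neighbours did not. The order was not fixed across groups: Efna4 was above Efna1 in 8 of the 12 libraries and Efna3 above Epha1 in 7.

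**Figure D1:**
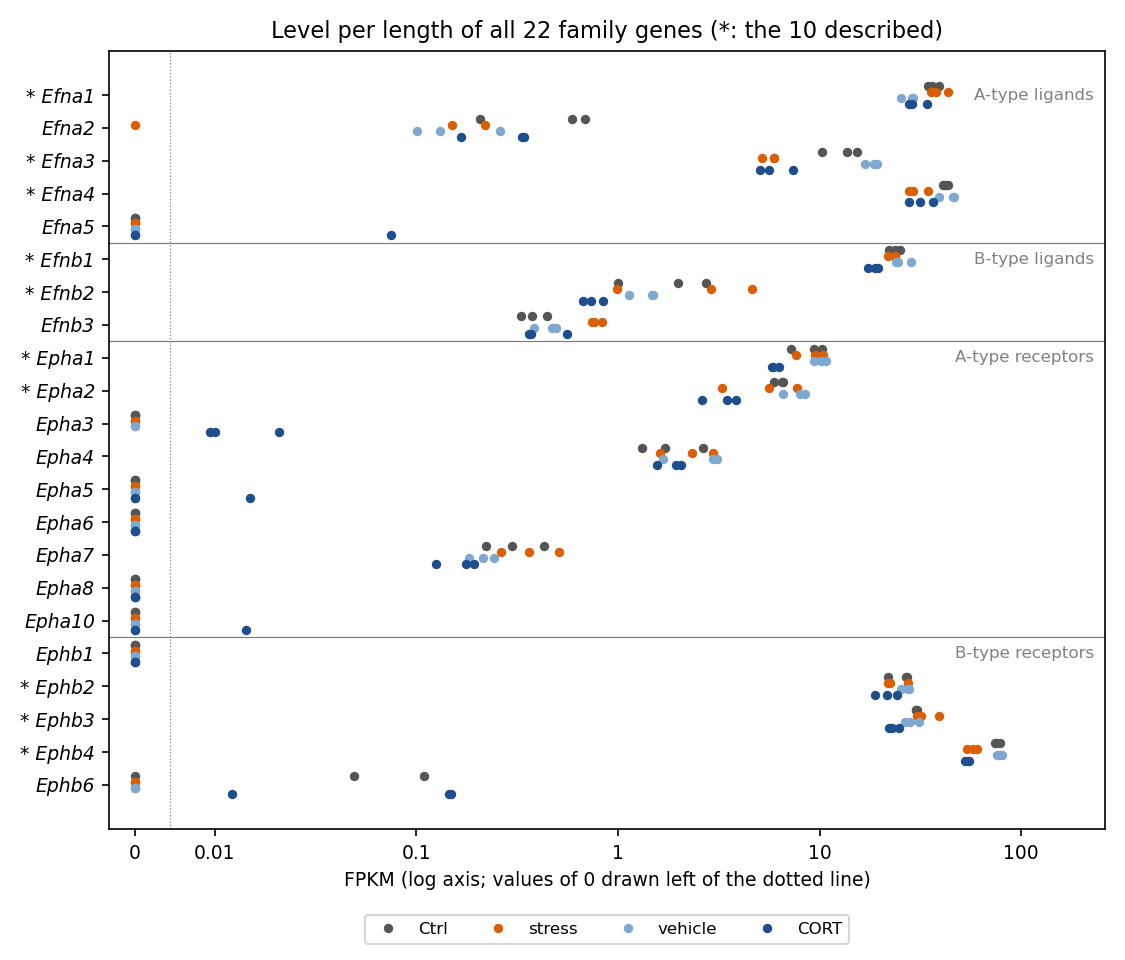
FPKM on a log axis of the 22 Eph and ephrin genes in the 12 libraries, 1 point per library, coloured by group and ordered by role, with values of 0 drawn left of the dotted line. The 10 genes described (starred) lie between 0.667 and 79.99 FPKM, and Epha6, Epha8 and Ephb1 are at 0 in all 12 libraries.

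The other 12 family genes were low. Epha4, an A-type receptor, was the highest of them, at 1.89 ± 0.678 FPKM in Ctrl libraries, and Efna2, Efnb3 and Epha7 stayed below 1 FPKM in every library. Epha3, Epha5, Epha10, Efna5 and Ephb6, the last a receptor without kinase activity, were at 0 in 9, 11, 11, 11 and 7 of 12 libraries. Epha6, Epha8 and Ephb1 had no count in any. A count of 0 allows up to 3 read pairs, or 12 counts, which was 0.708 CPM in the library Ctrl 1, and this covers counting error only.

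Stress lowered 2 of the 10 genes, the ligand Efna3 and the receptor Ephb4, and CORT lowered 6, namely Efna3, Efnb1, Epha1, Epha2, Ephb2 and Ephb4 (edgeR quasi-likelihood test, Benjamini-Hochberg adjusted p below 0.05 over all genes tested). Among all genes, 0.59% of 13722 passed in the lower direction under stress and 4.5% of 14656 under CORT. All 6 enterocyte markers rose in the stress comparison (edgeR), and their part in the stress falls was not tested. Efna3 and Ephb4 were the members that fell in both comparisons, which do not share libraries; 0.418% of the 13627 genes tested in both did so. None of the 10 rose in either comparison with edgeR, where 1.3% of all genes rose under stress and 3.64% under CORT. For 10 genes, none is near these shares and says nothing particular about them. None rose at an unadjusted p below 0.05 or with DESeq2 or limma either, for which no share of all genes rising was computed. With a fold change above 2 also required, 1 gene was lower under stress (Efna3; 0.138% of all genes) and 2 under CORT (Efna3 and Epha2; 0.737%).

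The median log2 fold change of the 10 genes was 0.01 under stress, beside -0.00 over all genes tested, and -0.42 under CORT, beside 0.01 over all genes. Without regard to a p-value, all 3 stress libraries lay below all 3 Ctrl libraries for 3 of the 10 (Efna3, Efna4, Ephb4; 10.2% of all genes) and above them for 1 (Ephb3; 10.2%). All 3 CORT libraries lay below all 3 vehicle libraries for 9 of the 10, the exception being Efna1 (14.5% of all genes), and above them for none (14.3%).

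**Figure D2:**
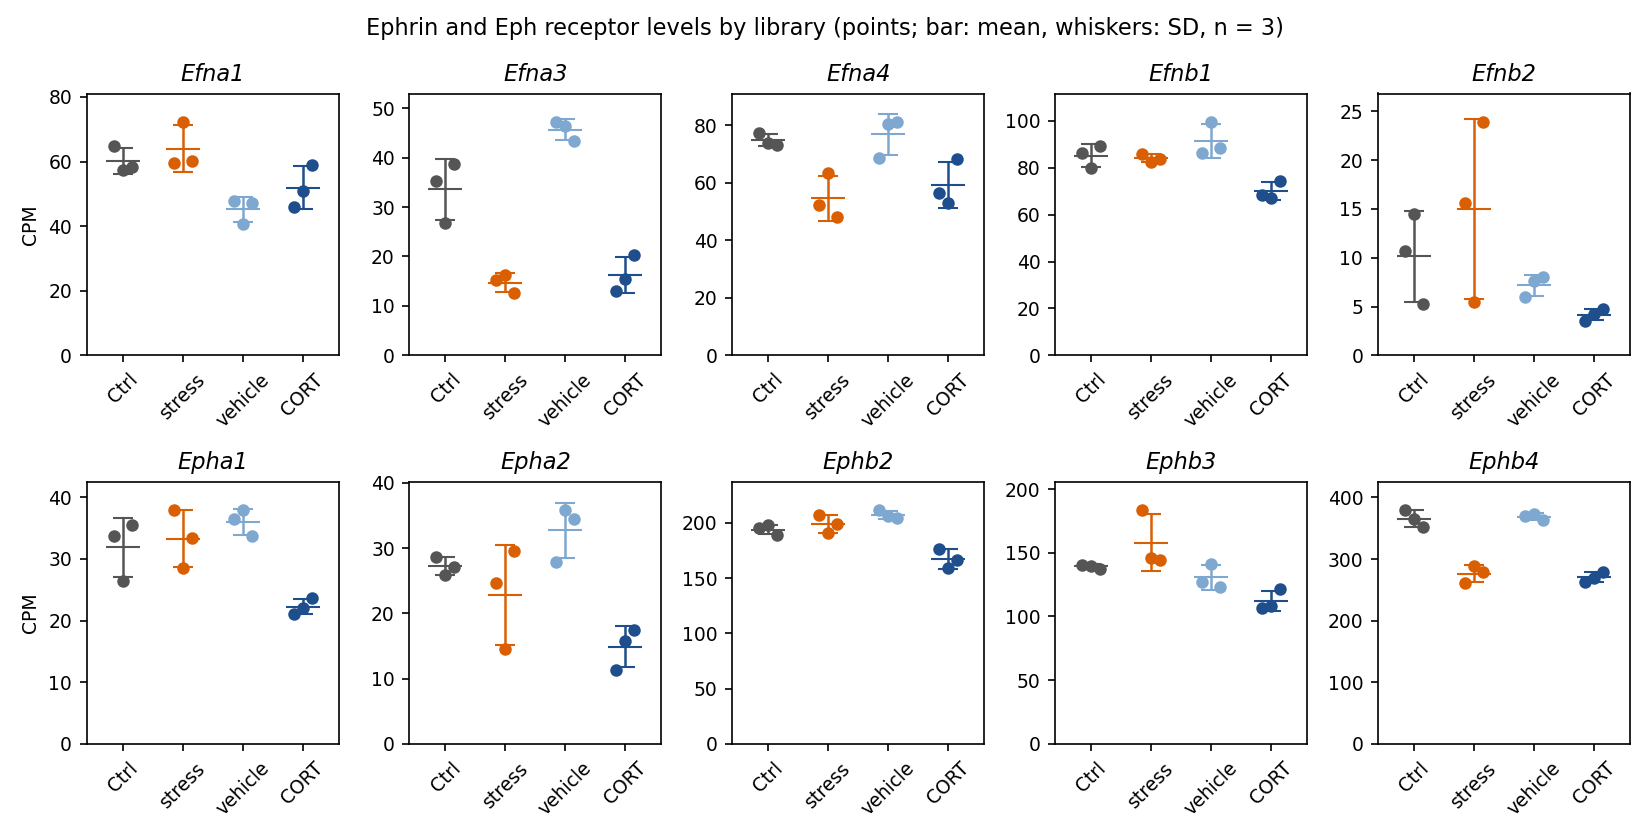
CPM of each of the 10 genes by group, with 1 point per library, the group mean as a bar and whiskers for the SD (n = 3); every axis starts at 0. The stress points lie below the Ctrl points for Efna3, Efna4 and Ephb4, and the CORT points lie below the vehicle points for every gene but Efna1.

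Among the 3 listed A-type ligands, Efna3 showed the largest fold changes. Its levels were 35.3, 26.8 and 38.6 CPM in Ctrl and 15.3, 16.2 and 12.7 CPM in stress libraries. In vehicle libraries they were 47.3, 46.4 and 43.3 CPM, and in CORT libraries 13.1, 15.4 and 20.3 CPM. Neither pair of groups overlapped, and all 6 exposed libraries lay below all 6 control libraries. Efna3 fell 2.28-fold under stress (log2 fold change -1.19, SE 0.17, adjusted p = 0.0101) and 2.82-fold under CORT (-1.50, SE 0.16, adjusted p = 8.3e-04). The study displayed Efna3 in a heatmap of these same samples, so this direction is not independent evidence. Without the stress library 1+2, 3 or 4+5+6 the change was -1.21, -1.26 and -1.09 (adjusted p = 0.0475, 0.00415 and 0.0355). All 3 had enterocyte sums above those of Ctrl, so leaving 1 out cannot separate that from stress, and its part was not tested. Without Ctrl 1 or Ctrl 3 it was -1.15 and -1.07 and the adjusted p rose to 0.0695 and 0.0649. The call was also lost without a filter on low counts (0.0627) and with limma without a filter (0.125).

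Efna4, the neighbouring gene of the same class, had smaller fold changes. It stood at 77.4, 73.9 and 73.3 CPM in Ctrl, 52.3, 63.3 and 48.3 CPM in stress, 68.8, 80.6 and 81.3 CPM in vehicle, and 56.4, 53.1 and 68.3 CPM in CORT libraries. Both exposed groups lay below their controls, the highest CORT library by less than 1 CPM. For Efna3 and Efna4 the stress libraries ran in the reverse order of their enterocyte and goblet sums, and for Ephb4 they did not. The part of this order in the results was not tested. Neither difference passed over all genes: -0.45 (SE 0.11, adjusted p = 0.075) under stress and -0.38 (SE 0.11, adjusted p = 0.0709) under CORT. With DESeq2 both did, at adjusted p of 0.0195 and 0.0199, and each passed in 3 of 16 alternatives.

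Efna1, the third expressed A-type ligand, showed no such difference. Its levels were 64.7, 57.4 and 58.3 CPM in Ctrl, 59.5, 72.4 and 60.1 CPM in stress, 47.6, 40.7 and 47.3 CPM in vehicle, and 45.8, 51.0 and 58.9 CPM in CORT libraries. Exposed and control libraries overlapped both times. The log2 fold changes were 0.09 under stress (95% interval -0.15 to 0.33) and 0.19 under CORT (-0.06 to 0.45). The share of Efna3 in the summed FPKM of the 5 A-type ligands was accordingly 14.1% ± 2.17 in Ctrl and 7.58% ± 0.678 in stress, and 20.3% ± 1.7 in vehicle and 8.71% ± 0.785 in CORT libraries (SD, n = 3).

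These 3 ligands lie side by side on the minus strand of chromosome 3 (mm10), over 66.3 kb: Efna1 at chr3:89271733-89281142, Efna3 at chr3:89313899-89322965 and Efna4 at chr3:89333390-89338028. The annotation lists 33 genes from 100 kb before the cluster to 100 kb after it. Of 23 other genes tested there under stress none passed, with log2 fold changes from -0.73 to 0.84 and a median of -0.14. Of 24 tested under CORT, 1 passed, Trim46 (-1.76, adjusted p = 0.0292), a gene of low level at 3.31 CPM on average, and the median was -0.21. Adam15, the expressed gene next to Efna4, changed by -0.26 (SE 0.13, adjusted p = 0.415) and -0.23 (SE 0.12, adjusted p = 0.281). This neighbourhood was examined after the values of the 3 ligands were known. Exons of Efna3 and Efna4 overlap antisense transcripts on the other strand, over 344 and 168 bases, and no source used here says that counting was by strand. Those transcripts averaged 4.0 and 53.1 counts.

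**Figure D3:**
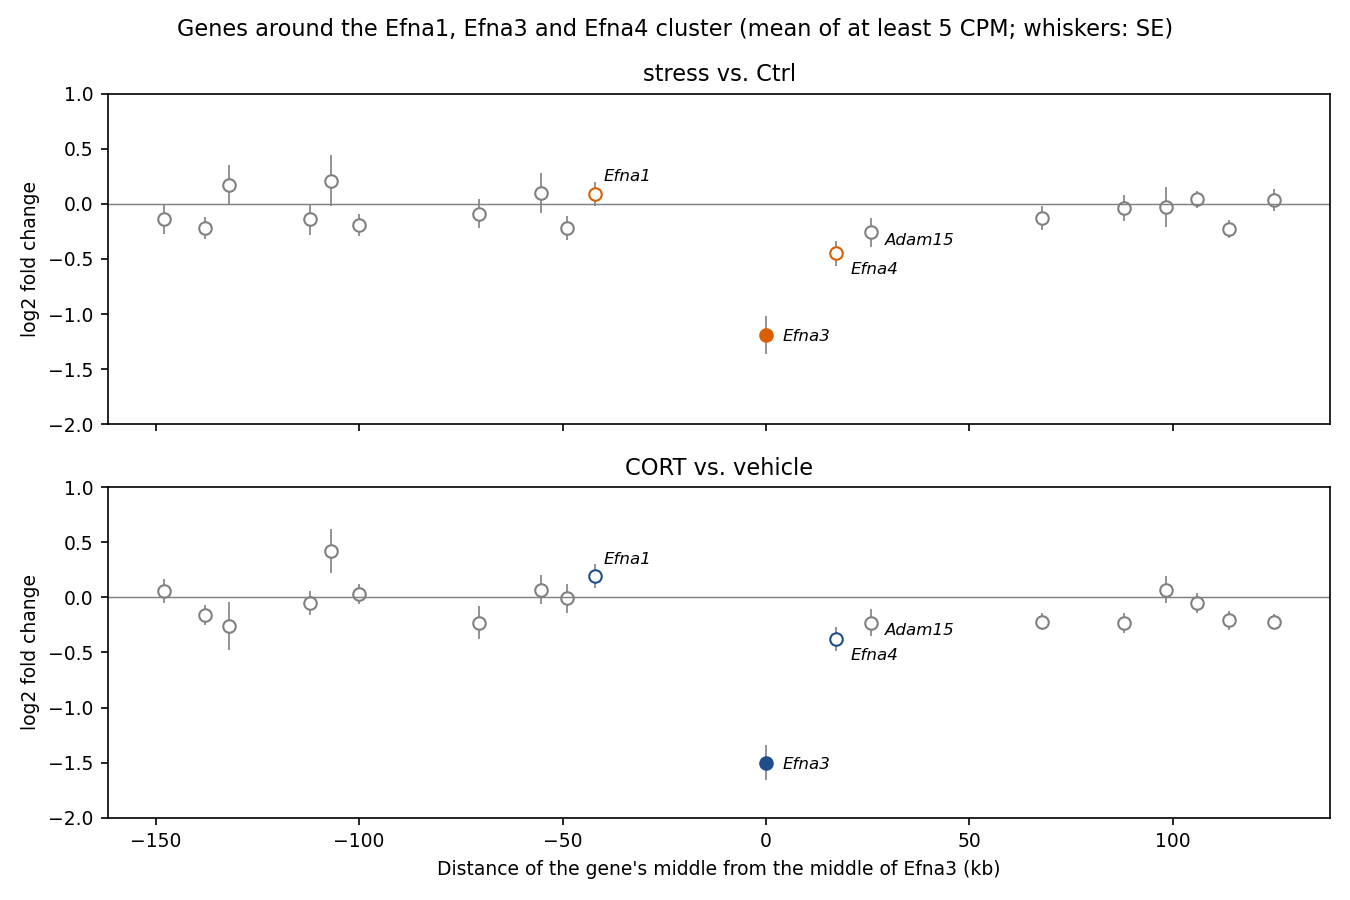
Log2 fold change (points, whiskers for the SE) of the genes around the Efna1, Efna3 and Efna4 cluster against the distance in kb from the middle of Efna3, with stress vs. Ctrl above and CORT vs. vehicle below. Coloured points are the 3 ligands, filled points have an adjusted p below 0.05, and genes with a mean under 5 CPM, Trim46 among them, are not drawn. Efna3 stands at -1.19 and -1.50 while Efna1 stands at 0.09 and 0.19.

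Efna3 had the largest fold changes of the listed genes, and Epha2 was the other one past 2-fold. Their promoters are shown from the RefSeq promoter table (GRCm38.p6, the mm10 assembly). Given are the 250 bases before the start, read 5′ to 3′ on the gene's strand. Efna3 has 2 listed starts, and the upstream one is given, on the minus strand at chr3:89322940-89323189. Epha2 is on the plus strand at chr4:141300971-141301220, with a match to a TCF/LEF motif in capitals.
Efna3: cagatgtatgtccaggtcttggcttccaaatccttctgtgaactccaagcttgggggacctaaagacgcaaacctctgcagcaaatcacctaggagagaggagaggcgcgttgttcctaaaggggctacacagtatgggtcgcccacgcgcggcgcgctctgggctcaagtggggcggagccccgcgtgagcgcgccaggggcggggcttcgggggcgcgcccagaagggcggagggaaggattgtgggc
Epha2: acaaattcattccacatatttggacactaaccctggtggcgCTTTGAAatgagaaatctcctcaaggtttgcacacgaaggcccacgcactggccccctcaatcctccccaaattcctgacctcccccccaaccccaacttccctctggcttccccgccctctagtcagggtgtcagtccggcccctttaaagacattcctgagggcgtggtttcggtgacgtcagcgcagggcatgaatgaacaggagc

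All 10 symbols were found in that table, with 12 promoters between them, each searched over 300 bases from 250 before to 50 after the start, on both strands. The glucocorticoid receptor half-site (AGAACA, or TGTTCT on the other strand) was in none of the 12 and in 18.97% of all 32851 promoters. Both half-sites spaced by 3 bases, which contain the single one, were in none of the 12 and in 0.01% of all. The TCF/LEF motif (CTTTGAT or CTTTGAA) was in 1 of the 12, that of Epha2, 209 bases before the start, and in 8.65% of all. The 12 promoters held between 54.7% and 72.3% G and C, against a median of 52.7% over the table. A match is a description of letters, and no match says only that these letters are not in this window.

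Of the B-type ligands, Efnb1, the ephrin with the higher level in the villus compartment, fell under CORT and not under stress. It stood at 86.1, 79.7 and 89.3 CPM in Ctrl and 85.8, 82.4 and 83.6 CPM in stress libraries. In vehicle libraries it was at 86.2, 99.6 and 88.5 CPM, and in CORT libraries at 68.1, 67.2 and 74.4 CPM. The stress and Ctrl values were interleaved, whereas the CORT and vehicle values did not overlap. The change was -0.39 under CORT (SE 0.08, adjusted p = 0.0218), and under stress -0.02 with a 95% interval from -0.20 to 0.17. Without vehicle 5, CORT 2 or CORT 4 the CORT call was lost (adjusted p = 0.0649, 0.0763 and 0.101), as it was with limma without a filter (0.0616), and it held in the other 12 of 16 alternatives.

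Efnb2, a B-type ligand best known from arterial endothelium, was the least abundant and most variable of the 10. Its levels were 10.6, 14.5 and 5.24 CPM in Ctrl and 15.6, 5.52 and 23.9 CPM in the stress libraries 1+2, 3 and 4+5+6. In vehicle libraries they were 5.94, 7.62 and 7.997 CPM, and in CORT libraries 3.57, 4.20 and 4.75 CPM. The stress libraries took the same order as for the goblet marker sum and the enterocyte marker sum, the latter at 693.2, 243 and 1491 CPM. The part of that in the result was not tested. The stress difference was 0.57 (SE 0.48, adjusted p = 0.65). It moved both ways with a library left out, to 0.06 without stress 4+5+6 and 0.26 without Ctrl 3, and to 0.97 without stress 3 and 0.92 without Ctrl 2, and it passed in none of these fits. The CORT difference was -0.79 (SE 0.22, adjusted p = 0.0557), with groups that did not overlap, and it passed in 3 of 16 alternatives, whose adjusted p ranged from 0.0241 (DESeq2) to 0.307 (the fit over 12 libraries). With thinned counts it was -0.60 (adjusted p = 0.16) and with limma on log2(FPKM + 1) -0.44 (adjusted p = 0.113). Efnb3 was low, with 0.332, 0.445 and 0.374 FPKM in Ctrl and 0.757, 0.838 and 0.740 FPKM in stress libraries, a log2 difference of 1.01 that did not pass (SE 0.40, adjusted p = 0.264) and rested on 21 to 51 counts per library.

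Of the 4 A-type receptors tested, Epha1 and Epha2 fell under CORT and Epha4 and Epha7 did not pass. Epha2, a receptor of epithelia that also responds to growth factor signalling, was at 27.9, 35.8 and 34.4 CPM in vehicle and 11.4, 15.8 and 17.5 CPM in CORT libraries. It was at 28.6, 25.9 and 27.1 CPM in Ctrl and 24.7, 14.5 and 29.5 CPM in stress libraries. CORT and vehicle values did not overlap, and the stress libraries were spread to both sides of the Ctrl libraries, again in the order of their enterocyte and goblet sums. Epha2 fell 2.21-fold under CORT (-1.14, SE 0.18, adjusted p = 0.00542), and its stress difference was -0.25 (95% interval -0.75 to 0.25, adjusted p = 0.675). Without stress 3 that difference was -0.00 and without stress 4+5+6 it was -0.47, and neither passed.

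Epha1, the founding member of the receptor family, was at 36.5, 37.9 and 33.7 CPM in vehicle and 21.1, 22.1 and 23.6 CPM in CORT libraries. In Ctrl libraries it was at 33.8, 26.4 and 35.5 CPM, and in stress libraries at 37.9, 28.6 and 33.4 CPM. Under CORT the groups were apart by about 10 CPM, whereas under stress they covered the same range. The changes were -0.70 (SE 0.10, adjusted p = 0.0047) under CORT and 0.06 (95% interval -0.28 to 0.40) under stress. Epha1 shares 236 exon bases with Zyx on the other strand, a gene of 1254 counts on average. Epha4 (-0.35 under CORT, adjusted p = 0.428) and Epha7 (-0.30, adjusted p = 0.703) were the remaining A-type receptors tested. The summed FPKM of all 9 A-type receptors was 20.6 ± 1.59 in vehicle and 11.3 ± 0.641 in CORT libraries, and 17.5 ± 2.52 in Ctrl and 17.4 ± 3.1 in stress libraries (SD, n = 3).

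Among the B-type receptors, Ephb4, the receptor that pairs with ephrin-B2, fell to a similar level in both comparisons. It was at 379, 364 and 352 CPM in Ctrl and 262, 288 and 279 CPM in stress libraries, and at 370, 374 and 363 CPM in vehicle and 263, 270 and 279 CPM in CORT libraries. All 6 exposed libraries lay below all 6 control libraries, with little spread inside any group. The decrease was 1.32-fold under stress (-0.40, SE 0.08, adjusted p = 0.0346) and 1.37-fold under CORT (-0.45, SE 0.07, adjusted p = 0.0055). The stress call depended on every library but 1: leaving out Ctrl 1, Ctrl 2, Ctrl 3, stress 1+2 or stress 4+5+6 gave log2 fold changes from -0.42 to -0.36 and adjusted p of 0.199, 0.142, 0.113, 0.159 and 0.0981. It was also lost in the 3 limma fits (0.0602 to 0.125) and without a filter on low counts (0.0925). Ephb4 shares 33 exon bases with Zan on the other strand, a gene of 1099 counts on average.

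Ephb2, the crypt base receptor under Wnt control, was at 195, 198 and 189 CPM in Ctrl and 207, 191 and 199 CPM in stress libraries. In vehicle libraries it was at 212, 206 and 205 CPM, and in CORT libraries at 177, 159 and 167 CPM. CORT and vehicle libraries did not overlap, and stress and Ctrl libraries did. Ephb2 fell 1.24-fold under CORT (-0.31, SE 0.07, adjusted p = 0.0285), and its stress difference was 0.04 (95% interval -0.14 to 0.21). The CORT call held in 7 of 16 alternatives. It was lost without vehicle 3, 5 or 6 or CORT 4 or 5, with adjusted p from 0.0559 to 0.137, with no filter on low counts (0.0561) and in the 3 limma fits (0.0972 to 0.168).

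Ephb3, its close relative in the crypt, was at 141, 140 and 137 CPM in Ctrl and 184, 146 and 145 CPM in stress libraries, and at 127, 141 and 123 CPM in vehicle and 106, 109 and 121 CPM in CORT libraries. The stress libraries lay above Ctrl and the CORT libraries below vehicle, in both cases by a narrow gap at the nearest library. Neither difference passed (0.18, SE 0.10, adjusted p = 0.459, and -0.22, SE 0.08, adjusted p = 0.15). Without the stress library 1+2, the highest, the stress difference was 0.06. The summed FPKM of the 5 B-type receptors was 132 ± 0.601 in Ctrl and 115 ± 4.86 in stress libraries, and 133 ± 3.31 in vehicle and 99.2 ± 4.49 in CORT libraries (SD, n = 3).

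**Figure D4:**
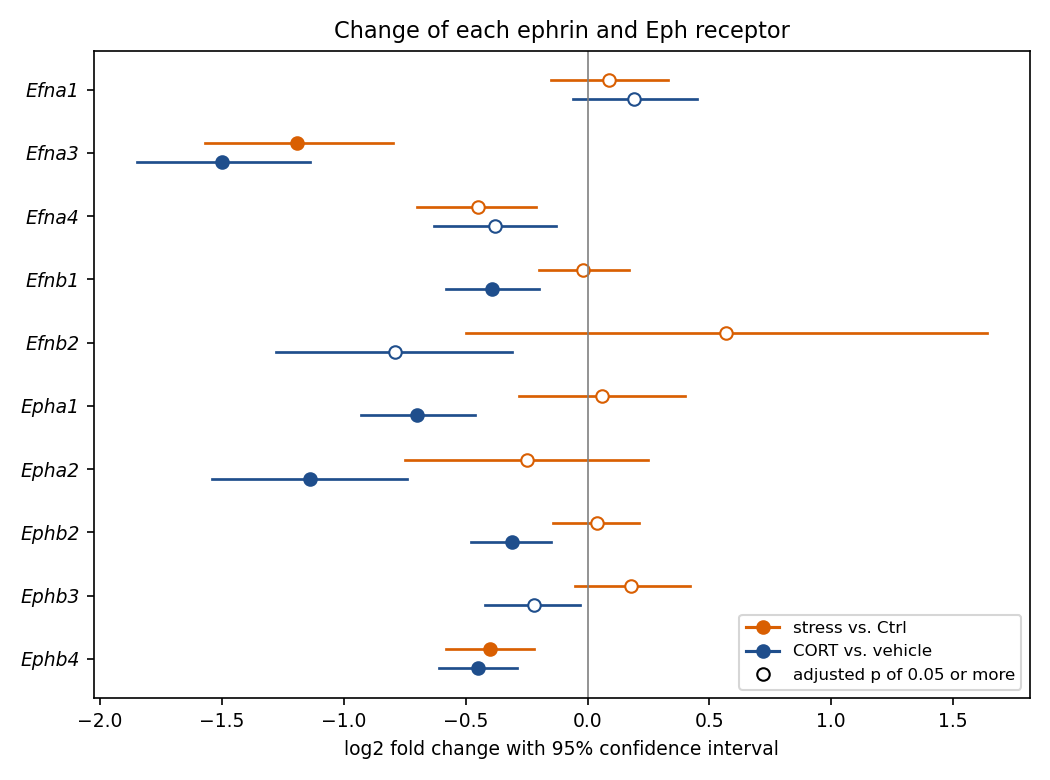
Log2 fold change (points) with 95% confidence interval (lines) of the 10 genes in stress vs. Ctrl and CORT vs. vehicle; filled points have an adjusted p below 0.05. Efna3 and Ephb4 are filled in both comparisons, and Efnb1, Epha1, Epha2 and Ephb2 in CORT vs. vehicle alone. The edgeR interaction test passed for none of the 10, and that of DESeq2 for Epha1 and Ephb2.

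Whether the stress and CORT changes differed was tested as an interaction over all 12 libraries. None of the 10 genes passed with edgeR (0.388% of 14415 genes did). Beside 1798 of the 14415 genes, 6 of the 10 had an unadjusted p below 0.05. The smallest of these p-values was that of Epha1, at 0.75 in log2 (stress change minus CORT change, SE 0.19, adjusted p = 0.0973), followed by Ephb2 at 0.35 (SE 0.09, adjusted p = 0.123). DESeq2 called both, at adjusted p of 0.0121 and 0.0161, and limma called none. Without the library stress 3, edgeR called Epha1 (adjusted p = 0.0372) and Epha2 (adjusted p = 0.0346). For Efna3 the difference was 0.31 (95% interval -0.22 to 0.83) and for Ephb4 0.05 (-0.16 to 0.25).

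Vehicle and Ctrl libraries, neither from mice given restraint or corticosterone, show how far the controls of the 2 comparisons lay apart. None of the 10 genes passed in vehicle vs. Ctrl (edgeR, with 0.799% of 13642 genes passing), nor with DESeq2 or limma. Beside 1512 of the 13642 genes, 2 of the 10 had an unadjusted p below 0.05 with edgeR. These were Efna1, lower in all 3 vehicle libraries (-0.41, SE 0.10, adjusted p = 0.119), and Efna3, higher in all 3 (0.45, SE 0.14, adjusted p = 0.205). Together with Ephb2, 3 of the 10 had groups that did not overlap, beside 16.3% of all genes. The vehicle group is a control of the CORT comparison and the Ctrl group of the stress comparison, so these values bear on both.

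The depth of the CORT libraries moved with that comparison. With every library thinned to the counts of the smallest, the same 6 genes passed, with Efna3 at -1.46, Epha2 at -1.15, Epha1 at -0.61, Ephb4 at -0.46, Efnb1 at -0.37 and Ephb2 at -0.34. The Paneth marker sum, Pecam1 and Pou2f3 also moved with the CORT comparison, and their part in these results was not tested.

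Downstream, 52 genes were listed for the steps from receptor and ligand to the cytoskeleton, of which 50 were tested. Under stress none of them passed with edgeR, DESeq2 or limma. Beside 2083 of all 13722 genes, 2 of the 50 had an unadjusted p below 0.05 with edgeR. The median log2 fold change of the 50 was -0.04, beside -0.00 over all genes. Under CORT 2 of the 50 rose and 5 fell, where 3.64% and 4.5% of all genes did, with a median of -0.06 beside 0.01 over all genes. In vehicle vs. Ctrl none passed with edgeR, and 8 of the 50 had an unadjusted p below 0.05, beside 1512 of 13642 genes. Of the genes that passed under CORT, all 3 vehicle libraries lay above all 3 Ctrl libraries for Yes1, Arhgef16, Arhgef19 and Stat3. They lay below them for Pik3r1 and overlapped them for Src and Arhgef5, where 16.3% of all genes did not overlap.

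Of the 18 adaptors, kinases and phosphatases, the Src family kinases Src and Yes1 fell under CORT and Pik3r1, the regulatory subunit of phosphoinositide 3-kinase, rose. Src was at 102, 109 and 104 CPM in vehicle and 76.4, 70.7 and 78.6 CPM in CORT libraries (-0.48, SE 0.07, adjusted p = 0.00518). Yes1 was at 109, 106 and 106 CPM in vehicle and 70.1, 88.0 and 82.6 CPM in CORT libraries (-0.42, SE 0.09, adjusted p = 0.0238). Pik3r1 was at 293, 320 and 277 CPM in vehicle and 402, 418 and 424 CPM in CORT libraries (0.48, SE 0.08, adjusted p = 0.00792). In none of the 3 genes did CORT and vehicle libraries overlap, where 14.5% of all genes lay apart in the lower and 14.3% in the higher direction. The 3 were named for passing the test, so this adds little to it. Src and Pik3r1 passed in 16 of 16 alternatives and Yes1 in 11.

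Of the 19 exchange factors and cytoskeletal genes tested, Arhgef16 and Arhgef19 fell under CORT and Arhgef5 rose; all 3 encode exchange factors that activate small GTPases. Arhgef16 was at 95.6, 97.7 and 94.9 CPM in vehicle and 71.2, 63.4 and 71.7 CPM in CORT libraries (-0.49, SE 0.08, adjusted p = 0.0055). Arhgef19 went from 58.4 ± 6.92 CPM in vehicle to 35.8 ± 4.7 CPM in CORT libraries (-0.71, SE 0.12, adjusted p = 0.00858), and Arhgef5 from 89.6 ± 7.41 to 132 ± 17.2 CPM (0.55, SE 0.11, adjusted p = 0.014; SD, n = 3). In Ctrl libraries Arhgef19 was at 47.8, 35.2 and 51.4 CPM, which overlapped its CORT libraries (31.1, 35.7 and 40.5 CPM). Its vehicle vs. Ctrl change was 0.39 (SE 0.14, edgeR adjusted p = 0.32). Arhgef5 passed in 13 of 16 alternatives and the others in all 16. Neither Rhoa, Rac1, Cdc42 nor the kinases Rock1, Rock2, Pak1 and Pak4 passed in either comparison with edgeR. Pak1 under CORT (-0.35, SE 0.11, adjusted p = 0.0955) passed in 2 of 16 alternatives, with an adjusted p as low as 0.0167, and DESeq2 called 5 genes of the list under CORT.

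Of 7 genes for reverse signalling, Stat3, a transcription factor that B-type ephrins can engage among many other inputs, fell under CORT. It was at 76.5, 77.2 and 99.2 CPM in vehicle and 51.4, 37.5 and 43.0 CPM in CORT libraries (-0.94, SE 0.14, adjusted p = 0.00409). In Ctrl libraries Stat3 was at 71.9, 55.7 and 62.6 CPM, above the CORT and below the vehicle libraries (vehicle vs. Ctrl 0.42, SE 0.12, edgeR adjusted p = 0.19). Of the 6 shedding proteases and junction partners tested, none passed in either comparison with edgeR, DESeq2 or limma. Among them are Adam10, which cleaves ephrins, and Cdh1 (E-cadherin). Under CORT 1 of the 6 had an unadjusted p below 0.05 with edgeR, as did 3428 of all 14656 genes. Of 14 crypt Wnt targets tested, 2 fell under stress (Ascl2 and Myc) and 2 under CORT (Ascl2 and Lgr5), where 0.59% and 4.5% of all genes fell, with medians of -0.28 and -0.24 beside -0.00 and 0.01 over all genes. The fall of Myc under stress passed in 6 of 16 alternatives (adjusted p up to 0.171) and that of Lgr5 under CORT in 9 of 16 (up to 0.0723). Ascl2, a stem cell transcription factor, went from 144 ± 5.22 CPM in Ctrl to 61.5 ± 7.59 CPM in stress libraries (adjusted p = 3.4e-04, passing in 16 of 16 alternatives) and from 161 ± 11.2 CPM in vehicle to 80.8 ± 24.5 CPM in CORT libraries (adjusted p = 0.0114, passing in 14 of 16; SD, n = 3).

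**Figure D5:**
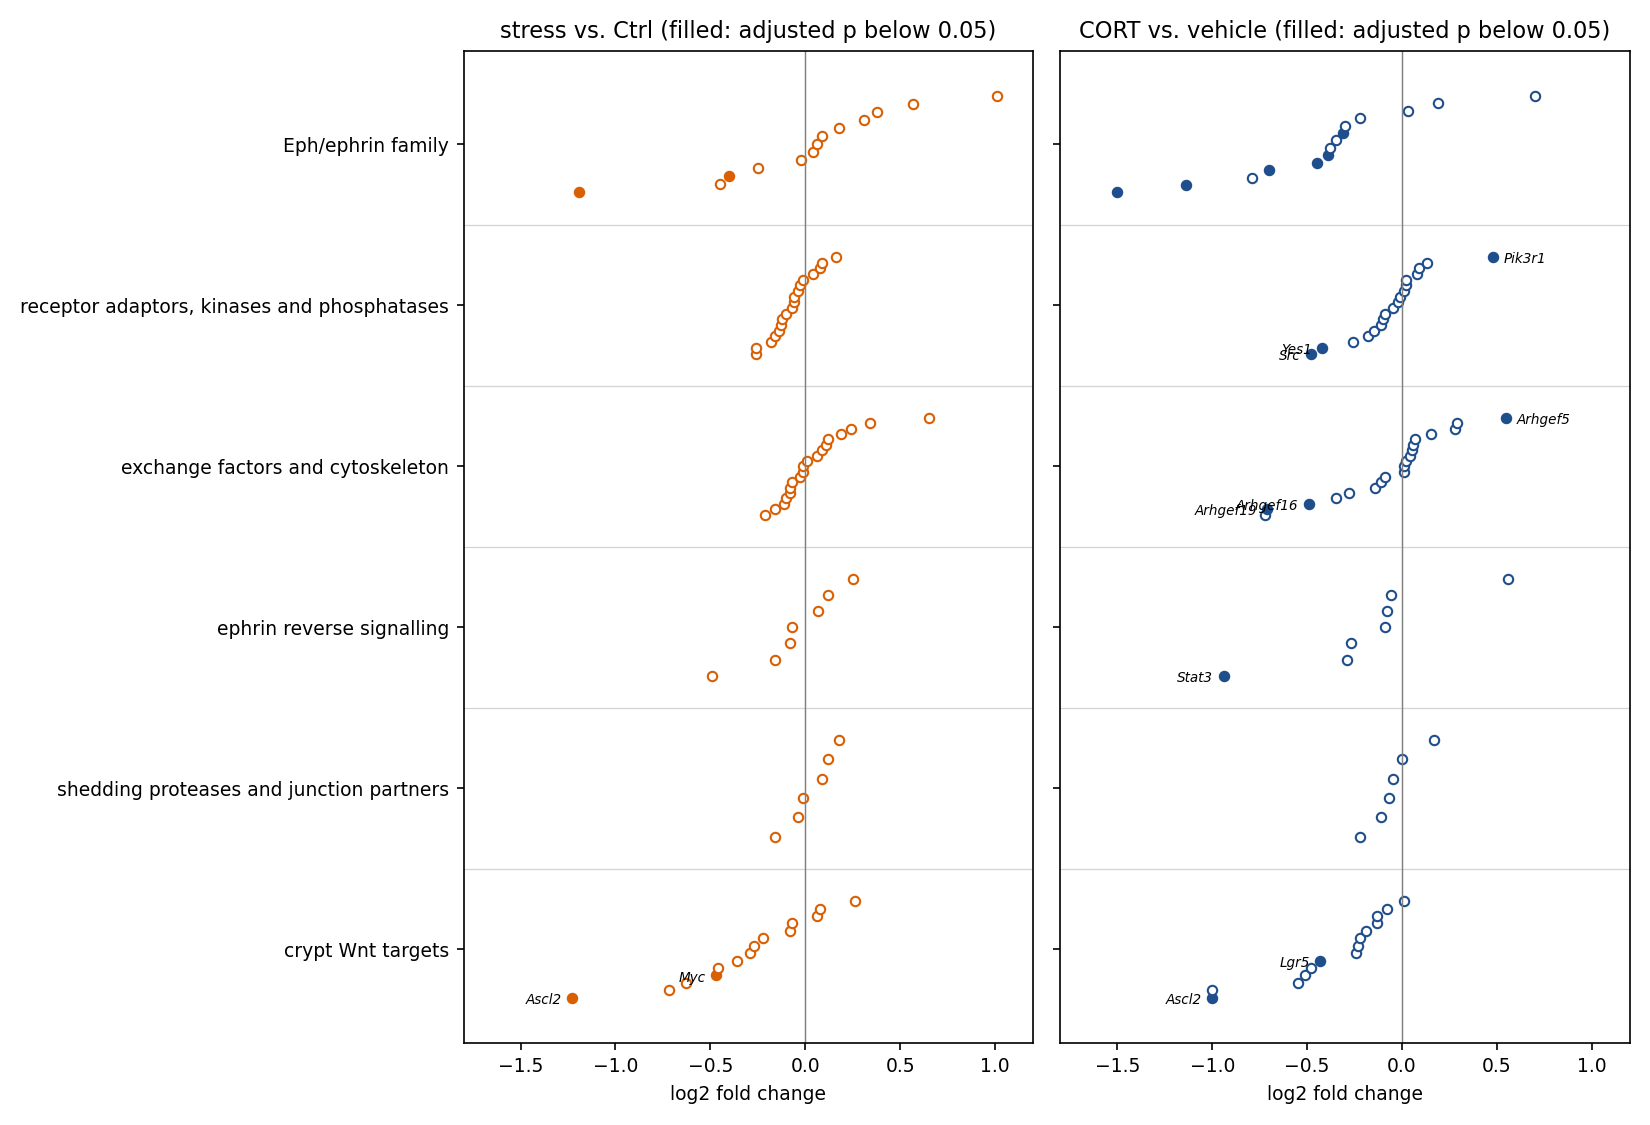
Log2 fold change of every gene tested from the Eph/ephrin family and the lists of its downstream steps and of crypt Wnt targets, 1 point per gene, ordered by size within each list, with stress vs. Ctrl left and CORT vs. vehicle right. Filled points have an adjusted p below 0.05 and carry names outside the family: 0 of 50 downstream genes are filled under stress and 7 under CORT.

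The genes with the most similar course over the 12 libraries were found by the root mean square difference in log2(CPM + 1) after each gene's own mean was removed, among 12812 genes of at least 1 CPM on average. For Efna3 they were Abi3 (0.21), Ascl2 (0.217) and Per2 (0.237), and for Ephb4 Hnf4a (0.0656), Ythdf2 (0.0709) and Ywhag (0.0772). Efnb1 was closest to Lamb3 (0.051), Erbb2 (0.0599) and Slc12a9 (0.0629), and Ephb2 to Gpa33 (0.0474), Usp10 (0.0568) and Mal2 (0.066). Epha1 was closest to Kdm6b (0.0902), Pik3c2b (0.125) and Eps8 (0.129), and Epha2 to 2810459M11Rik (0.181), Smim24 (0.187) and Lmna (0.198). The values describe these libraries, which share groups and depth, and carry no test.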

How the data were processed

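Lgr5-EGFP-hi ISCs, sorted as EpCAM+CD24- cells lacking CD31, CD45 and TER119, gave 12 RNA-seq libraries. The authors deposited a matrix of estimated counts per gene and, for each library, tables of FPKM, TPM and coverage (a signal of mean read depth); TPM and coverage were not used. The submitters' processing notes name HISAT2 2.2.1, StringTie 2.2.1 and mm10, whereas the methods of the study describe a read counter; the counts fit covered bases divided by about 75, as StringTie's converter writes them. The counts were used as deposited, as whole numbers, and strand use is not stated.

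Genes were fitted with edgeR 4.0.16 (R 4.3.3; trimmed-mean scaling, filterByExpr, quasi-likelihood test) on the 6 libraries of each comparison and on all 12 for the interaction, with Benjamini-Hochberg adjustment. The biological coefficient of variation was 18.5% for stress vs. Ctrl and 19.2% for CORT vs. vehicle. Alternatives were DESeq2 1.42.0, its size factors, other count filters, counts divided by 4, thinned counts, a fit over 12 libraries, limma 3.58.1 on log2(FPKM + 1) and log2(FPKM + 0.1), and leaving out each library. SDs are over 3 libraries.

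Genes named were the 10 members, other family genes and the 3 likest genes of each member called. From the downstream and Wnt target lists, genes past the threshold and some that did not pass were named. Cell type markers and genes near or overlapping members were named too. Members and lists were chosen with earlier results of these data known. Coordinates are mm10, from GENCODE M21, which matched 47224 of 47729 identifiers. Replicates differed by more than sampling noise. Afdn was not found under that symbol.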

Additional observations from a re-analysis of the deposited data

Results flagged for a closer look

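Ephb3 was picked out because its libraries moved in opposite directions: all 3 stress libraries lay above Ctrl (0.18 in log2) and all 3 CORT libraries below vehicle (-0.22). The difference between these changes was 0.40 (interaction test, unadjusted p = 0.00995, edgeR adjusted p = 0.217) and did not pass over all genes. Without the stress library 1+2 the stress change was 0.06 and the difference 0.28.

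Pik3r1 was picked out by the interaction test, with changes of -0.14 under stress and 0.48 under CORT and a difference of -0.63 (edgeR adjusted p = 0.0358). Over the alternatives for this difference the adjusted p ranged from 5.2e-05 to 0.134, and it was below 0.05 in 9 of 21. Yes1 showed opposite directions in all libraries, 0.08 under stress and -0.42 under CORT, with a difference of 0.50 (unadjusted p = 6.0e-04, edgeR adjusted p = 0.0782). All 3 vehicle libraries lay above the Ctrl libraries for Yes1 (0.21, SE 0.07, edgeR adjusted p = 0.281), and both groups enter this difference. For Ephb3 and Yes1, the share of all genes with opposite directions in all libraries was not computed. Groups of 3 libraries are too small for a search for single outlying libraries.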

How the results depend on the processing

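Under CORT, 4 to 8 of the 10 genes passed over 16 alternatives, and Efna3, Epha1, Epha2 and Ephb4 passed in all 16. Under stress, Efna3 passed in 12 of 16 and Ephb4 in 7. The count of members under stress was 0 with no filter on low counts, 1 with limma on log2(FPKM + 1) or log2(FPKM + 0.1), 0 with limma without a filter, and from 0 to 3 with a library left out. For the interaction it was 2 with DESeq2 and from 0 to 2 with a library left out.

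Counts over all genes moved more. Under stress they were 557 with DESeq2, 46 with no filter, 510 in the fit over 12 libraries, 87 and 80 with limma on log2(FPKM + 1) and log2(FPKM + 0.1), 27 with limma without a filter, and 56 to 849 with a library left out, beside 260. Under CORT they were 1767 with DESeq2, 561 with limma without a filter and 503 to 1003 with a library left out, beside 1192. For vehicle vs. Ctrl they were 295 with DESeq2, 33, 28 and 0 in the 3 limma fits and 20 to 169 with a library left out, beside 109. For the interaction they were 393 with DESeq2, 25, 23 and 17 in the limma fits and 12 to 241 with a library left out, beside 56.

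Near-zero changes turned sign. Ephb2 under stress was -0.08 in the 3 limma fits. With a library left out, Efna1 ranged under stress from -0.01 (without stress 3) to 0.15, Efnb1 from -0.06 to 0.02 (without Ctrl 3) and Epha1 from -0.05 (without Ctrl 2; -0.04 without stress 1+2) to 0.16. Ephb4 in vehicle vs. Ctrl ranged from -0.01 (without Ctrl 3) to 0.05, and Efna4 in the interaction from -0.20 to 0.03 (without CORT 5; 0.01 without stress 4+5+6). The causes were not tested. No called change turned sign. No paired analysis was run. Stress and Ctrl share the number 3, and the stress pool 1+2 combines numbers that separate Ctrl libraries carry. Vehicle and CORT share only the number 5, and vehicle and Ctrl only 3. No source used here ties these numbers to a pairing. Both the 3 libraries per group and, for the lowest of the 10 genes, depth limit precision: Efnb2 had 86 to 415 counts per library, at up to 4 counts per read pair.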
